A study of Mus musculus with 22 samples.

Results

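Cadherins and the genes of the epithelial-mesenchymal transition were read in mouse mammary tumours and normal mammary glands. The set held 10 genes, of 15964 genes in the series that were the only symbol of a probe set. It covered the epithelial adhesion genes Cdh1, Cdh3 and Epcam, the mesenchymal genes Cdh2, Cdh11 and Vim, and the transcription factor genes Snai1, Snai2, Twist1 and Zeb1. All probe sets on the 3 chip types whose only gene symbol was one of these were taken, whatever their signal. That gave 16 probe sets of 36701, of which chip A carried 12, chip B 0 and chip C 4.

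Total RNA was hybridised to 22 Affymetrix MG-U74v2 arrays, a 1-colour oligonucleotide platform on which a probe set of short oligonucleotides reads each transcript. The material was 8 RNA samples in 3 groups. There were 2 samples from tumours of PEA3-null mice, which carry the Her2/Neu transgene and are labelled as lacking the ETS transcription factor PEA3. Another 3 samples came from tumours of mice with the same transgene and wild-type PEA3, and 3 came from normal mammary glands of FVB mice. All 8 samples were put on chips A and B. Chip C received fewer, namely PEA3-null sample 1, wild-type samples 1 and 2 and the 3 gland samples. Tumour RNA was described as a pool and each normal sample was titled as one. Sorting for the surface protein Sca-1 was stated for all 3 groups. The promoter of the transgene and the age of the animals are not given in the sources used here. All arrays of a group carried the same sample identifier, so the p-values below measure the spread between RNA samples, which may be technical.

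In an epithelium, cadherins on neighbouring cells bind each other in a calcium-dependent way and are tied to actin through catenins. During an epithelial-mesenchymal transition this adhesion is lost, and cells gain vimentin filaments, fibroblast cadherins and motility. Snail, Slug, Twist1 and Zeb1, encoded by Snai1, Snai2, Twist1 and Zeb1, are transcription factors that drive the change, and Snail, Slug and Zeb1 bind E-box sequences such as CAGGTG in the promoter of the E-cadherin gene. In the mammary gland E-cadherin and EpCAM mark epithelium, P-cadherin and Slug are found mainly in the basal or myoepithelial layer, and vimentin, Twist1 and Zeb1 are best known from stromal cells.

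Signals are MAS5 intensities rescaled to the same trimmed mean on each array, and a log2 difference is taken after 32 was added to each signal. Probe sets at or above 150 on at least 2 arrays were tested with limma, adjusted over all tested probe sets, with a threshold of 0.05. Between 6939 and 8430 probe sets per array reached 150. Of the 16 probe sets here, 14 were tested, for 9 of the 10 genes. The 2 that were not were that of Cdh2 and the chip C probe set of Cdh11. Etv4, the gene of PEA3, passed by neither of its probe sets between the genotypes (PEA3-null minus wild-type tumours on the log2 scale, -0.01, SE 0.34, limma adjusted p = 0.998, and -0.22, SE 0.37, limma adjusted p = 0.875), and the files do not show whether these lie in the deleted part.

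Normal arrays stood apart from tumour arrays in more than tissue. The ratio of 3′ to 5′ signal of the GAPDH control, which rises as RNA degrades, was 0.91 to 1.25 on the 13 tumour arrays and 2.58 to 6.08 on the 9 normal arrays. The same ratio of the actin control overlapped, at 1.138 to 1.665 on tumour arrays and 1.278 to 2.144 on normal arrays. Within each chip type, gland arrays were scanned on another day than tumour arrays, so the day of scanning and the tissue cannot be told apart. On chip A the wash of normal glands 1 and 2 was recorded as aborted, while the 5 tumour arrays shared a scan day. Chip B, which carries many of the pathway genes below, had the PEA3-null and the wild-type arrays on different days and from different lots, so day, lot and genotype cannot be told apart there.

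Marker genes of cell types also differed between tumours and glands, as the plot of summed marker signal shows. Over 7 luminal genes the sum was 40719 and 44626 in the PEA3-null samples, 36108 to 40509 in wild-type tumours and 7209 to 8845 in normal glands. Fibroblast genes ran the other way, with sums over 10 genes of 4952 to 6197 in PEA3-null tumours, 5437 to 7973 in wild-type tumours and 43414 to 45601 in normal glands. Sums over 8 endothelial genes were 1638 to 1869 in PEA3-null tumours, 1356 to 2338 in wild-type tumours and 5918 to 7050 in normal glands. For 5 of 8 myoepithelial genes, those measured, they were 1312 to 1765 in PEA3-null tumours, 1550 to 2091 in wild-type tumours and 4569 to 5325 in normal glands. Against glands 2 of these 5 genes, Acta2 and Cnn1, passed as lower in each tumour group, and 3 did not pass. Under 150 on all arrays of the group were 2 of the 5 in PEA3-null tumours, 1 in wild-type tumours and 0 in normal glands. Over 6 of 8 adipocyte genes the sum was 2197 to 2487 in PEA3-null tumours, 1488 to 2086 in wild-type tumours and 52266 to 55683 in normal glands. For 8 genes of skeletal muscle it was 1250 and 4125 in PEA3-null samples 1 and 2, 1004 to 1494 in wild-type tumours and 190792 to 196173 in normal glands. Leukocyte genes, 8 of 10, summed to 3933 to 5004 in PEA3-null tumours, 3877 to 6431 in wild-type tumours and 10715 to 12864 in normal glands. Schwann cell genes, 4 of 7, summed to 4765 to 6182 in PEA3-null tumours, 5325 to 6021 in wild-type tumours and 6194 to 6820 in normal glands. Of the 8 endothelial genes 4 were under 150 on all arrays of PEA3-null tumours, 4 on all of wild-type tumours and 0 on all of normal glands. The whole RNA was read, so fewer cells of a type and less RNA per cell cannot be told apart, and the part these sums play in the differences between tumours and glands was not tested.

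**Figure D1:**
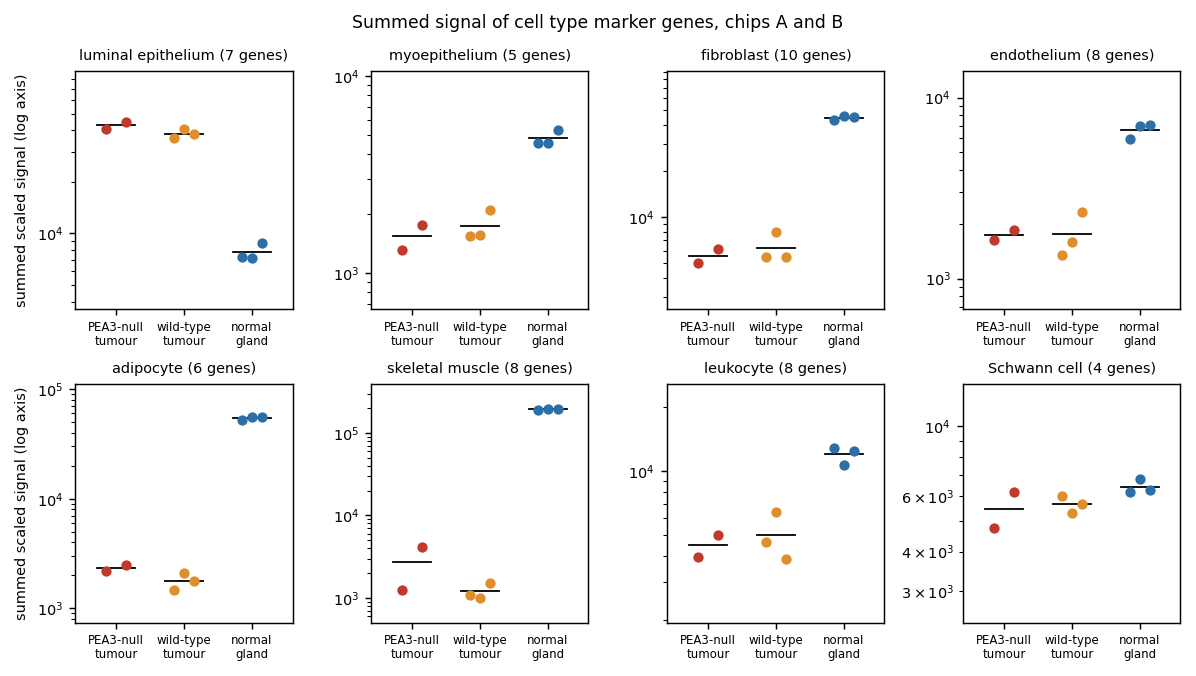
Summed scaled signal (vertical axis, log scale) of the marker genes of 8 cell types on chips A and B, with 1 point for each RNA sample and a line at the group mean. Luminal sums were 36108 or more in the 5 tumour samples and 8845 or less in the 3 normal glands, while fibroblast sums were 7973 or less in tumours and 43414 or more in glands.

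Among the epithelial adhesion genes, Epcam differed most between tumours and glands. Epcam encodes EpCAM, a surface glycoprotein of epithelial cells that mediates adhesion and is widely used as a carcinoma marker. RefSeq promoters, here the 250 bases before the start of the gene in assembly GRCm38.p6, were matched by symbol for 4 of the 10 genes: Epcam, Snai1, Twist1 and Vim. Those of Epcam and Twist1 are printed because these 2 genes differed from glands in opposite directions in both tumour groups. Epcam lies on the plus strand at chr17:87635729-87635978 and Twist1 on the plus strand at chr12:33957421-33957670, and capitals mark CAGGTG or its reverse complement CACCTG.
Epcam: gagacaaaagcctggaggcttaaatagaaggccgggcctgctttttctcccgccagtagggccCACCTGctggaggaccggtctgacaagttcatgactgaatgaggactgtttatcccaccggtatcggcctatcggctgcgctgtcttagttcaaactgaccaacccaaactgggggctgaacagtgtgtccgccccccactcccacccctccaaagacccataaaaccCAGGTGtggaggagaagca
Twist1: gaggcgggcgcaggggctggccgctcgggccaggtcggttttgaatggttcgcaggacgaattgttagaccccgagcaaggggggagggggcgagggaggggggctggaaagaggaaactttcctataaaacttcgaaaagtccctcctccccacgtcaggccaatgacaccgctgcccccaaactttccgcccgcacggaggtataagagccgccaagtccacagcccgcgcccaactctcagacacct
The Epcam window held 2 matches, whose first bases lie at -187 and -19 relative to the start, and the Twist1 window held 0. The Snai1 window held 1 match, at -126, and the Vim window 0. Of 32851 mouse promoter windows of that length, 17.2% held a match, so a match describes the letters and is no evidence of binding.

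On chip A the Epcam signal was 4398 and 3881 in the PEA3-null samples, 4159, 3200 and 3650 in the wild-type tumours, and 429, 356 and 472 in the normal glands. Every tumour sample lay above every gland, and the tumour groups overlapped. Epcam was 9.29-fold higher in PEA3-null tumours than in normal glands (log2 3.22, SE 0.18, limma adjusted p = 3.44e-07) and 8.21-fold higher in wild-type tumours (same glands, log2 3.04, SE 0.16, limma adjusted p = 1.63e-07). Between PEA3-null and wild-type tumours the log2 difference was 0.18, with a 95% interval of -0.21 to 0.57 (limma adjusted p = 0.764).

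Chip C held 3 more Epcam probe sets, which did not give the same size of difference. Probe set 134370_f_at read 2907 in the PEA3-null sample, 3137 and 3195 in wild-type tumours, and 415, 318 and 626 in normal glands. Its difference between wild-type tumours and glands was close to that on chip A (6.82-fold, log2 2.77, SE 0.34, limma adjusted p = 0.000339). Probe set 134369_i_at read 2351 in the PEA3-null sample, 3483 and 3199 in wild-type tumours, and 1875, 1816 and 1730 in normal glands, a smaller rise in wild-type tumours (1.83-fold, log2 0.87, SE 0.23, limma adjusted p = 0.0234). That call was lost in 7 of 19 alternative settings. The third, 170480_at, read 922 in the PEA3-null sample, 3068 and 2422 in wild-type tumours, and 2179, 2076 and 2154 in normal glands, and did not pass (log2 0.35 between wild-type tumours and glands, SE 0.24, limma adjusted p = 0.387). It was the 1 Epcam probe set on which the PEA3-null array read below all glands. The suffixes f, i and r mark probe sets designed under relaxed rules, where f stands for probes that can match several sequences of a family. PEA3-null, wild-type and normal arrays of chip C were each scanned on a day of their own, so day and group cannot be told apart there.

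**Figure D2:**
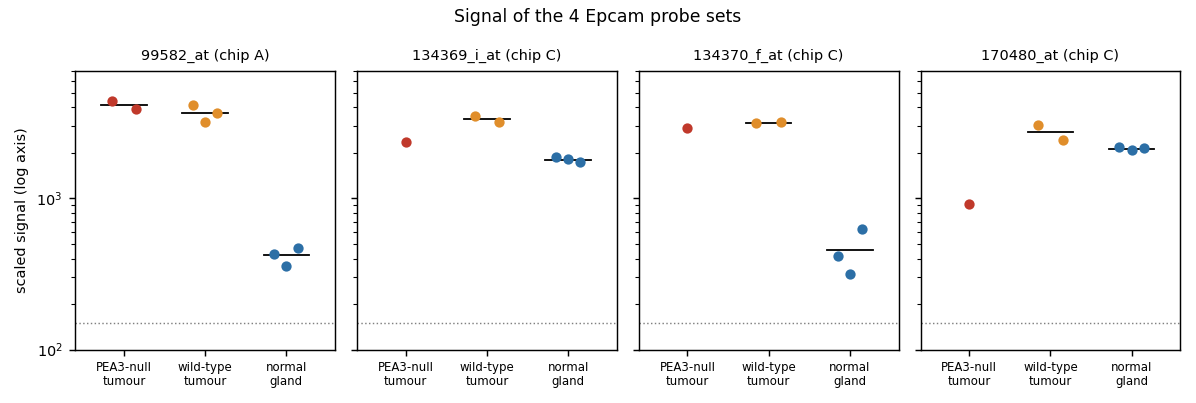
Scaled signal (vertical axis, log scale) of the 4 Epcam probe sets, with 1 point for each array, a line at the group mean where a group has more than 1 array, and a dotted line at the minimum of 150. On 99582_at and 134370_f_at every tumour array lies above every normal array, whereas on 170480_at the lone PEA3-null array, at 922, lies below the glands.

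Cdh1 encodes E-cadherin, the cadherin of epithelial adherens junctions. Its signal was 733 and 803 in PEA3-null tumours, 772, 778 and 937 in wild-type tumours, and 636, 543 and 463 in normal glands. Tumour samples lay above the glands without overlap, and the tumour groups overlapped. Wild-type tumours exceeded glands 1.49-fold (log2 0.58, SE 0.19, limma adjusted p = 0.0491). In PEA3-null tumours the log2 difference from glands was 0.48 (SE 0.21) and did not pass (limma adjusted p = 0.125). Cdh1 differed between PEA3-null and wild-type tumours by -0.10 on the log2 scale, with a 95% interval of -0.56 to 0.36. The call in wild-type tumours sat at the threshold and was lost in 11 of 19 alternative settings, with adjusted p up to 0.169. With arrays scaled over all probe sets, controls included, the adjusted p was 0.0501.

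Cdh3 encodes P-cadherin. The brighter of its probe sets, 100409_at, read 243 and 622 in PEA3-null tumours, 497, 526 and 551 in wild-type tumours, and 349, 599 and 482 in normal glands, with the groups overlapping throughout. It passed in no comparison (log2 -0.39 for PEA3-null against wild-type tumours, 0.16 for wild-type tumours against glands and -0.23 for PEA3-null tumours against glands). The dimmer, 162097_r_at, read 183 and 416 in PEA3-null tumours, 227, 205 and 155 in wild-type tumours, and 114, 144 and 124 in normal glands. Here all tumour samples lay above all glands, but the probe set entered the test through tumour arrays alone and was not called (log2 0.97 for PEA3-null tumours against glands, SE 0.40, limma adjusted p = 0.103). Without PEA3-null sample 1 that difference was 1.50 (limma adjusted p = 0.0309). Such a fit, here and below, takes the spread of the remaining PEA3-null sample from the wild-type tumours and glands.

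The mesenchymal genes did not move as a group. Cdh2 encodes N-cadherin, the cadherin gained in classical transitions. It read 11.7 and 19.3 in PEA3-null tumours, 17.2, 16.6 and 9.97 in wild-type tumours, and 52.3, 79.3 and 106 in normal glands. All 8 values lay under the minimum of 150, and the tumour samples lay below the glands. Signals this low were not tested.

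Cdh11 encodes cadherin-11, also called OB-cadherin, which is typical of osteoblasts and fibroblasts. Probe set 100006_at read 234 and 213 in PEA3-null tumours, 180, 63.0 and 139 in wild-type tumours, and 52.4, 62.6 and 47.6 in normal glands. PEA3-null samples were highest, and all tumour samples were above all glands, wild-type sample 2 by a narrow margin. Only the PEA3-null arrays and wild-type array 1 reached the minimum of 150, so the gene entered the test through tumour arrays alone, and its size against glands under the minimum is not exact. It was past the threshold in PEA3-null tumours against glands (log2 1.57, SE 0.47, limma adjusted p = 0.029). Wild-type tumours did not pass against glands (log2 0.81, SE 0.42, limma adjusted p = 0.211). The difference between PEA3-null and wild-type tumours was itself not past the threshold (log2 0.75, SE 0.47, limma adjusted p = 0.599). The call in PEA3-null tumours was lost in 8 of 19 alternatives, among them the loss of either PEA3-null sample (limma adjusted p = 0.11 without sample 1 and 0.0803 without sample 2). Probe set 139147_at on chip C read 21.9 in the PEA3-null sample, 149 and 171 in wild-type tumours, and 31.4, 101 and 41.6 in normal glands. It was too dim to test and placed the lone PEA3-null sample lowest, against its place on 100006_at.

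Vim encodes vimentin, the intermediate filament of mesenchymal cells. Its signal was 198 and 428 in PEA3-null tumours, 149, 72.3 and 282 in wild-type tumours, and 145, 137 and 151 in normal glands. Samples of a tumour group differed from each other more than the group means did from the glands. Of the 8 arrays 4 reached the minimum of 150, namely both PEA3-null arrays, wild-type array 3 and gland array 3. So near the minimum, this probe set cannot show whether Vim was unchanged. Vim passed in no comparison (log2 0.88 for PEA3-null tumours against glands, limma adjusted p = 0.22, 0.04 for wild-type tumours against glands, and 0.85 for PEA3-null against wild-type tumours). For that last difference the 95% interval ran from -0.23 to 1.92.

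**Figure D3:**
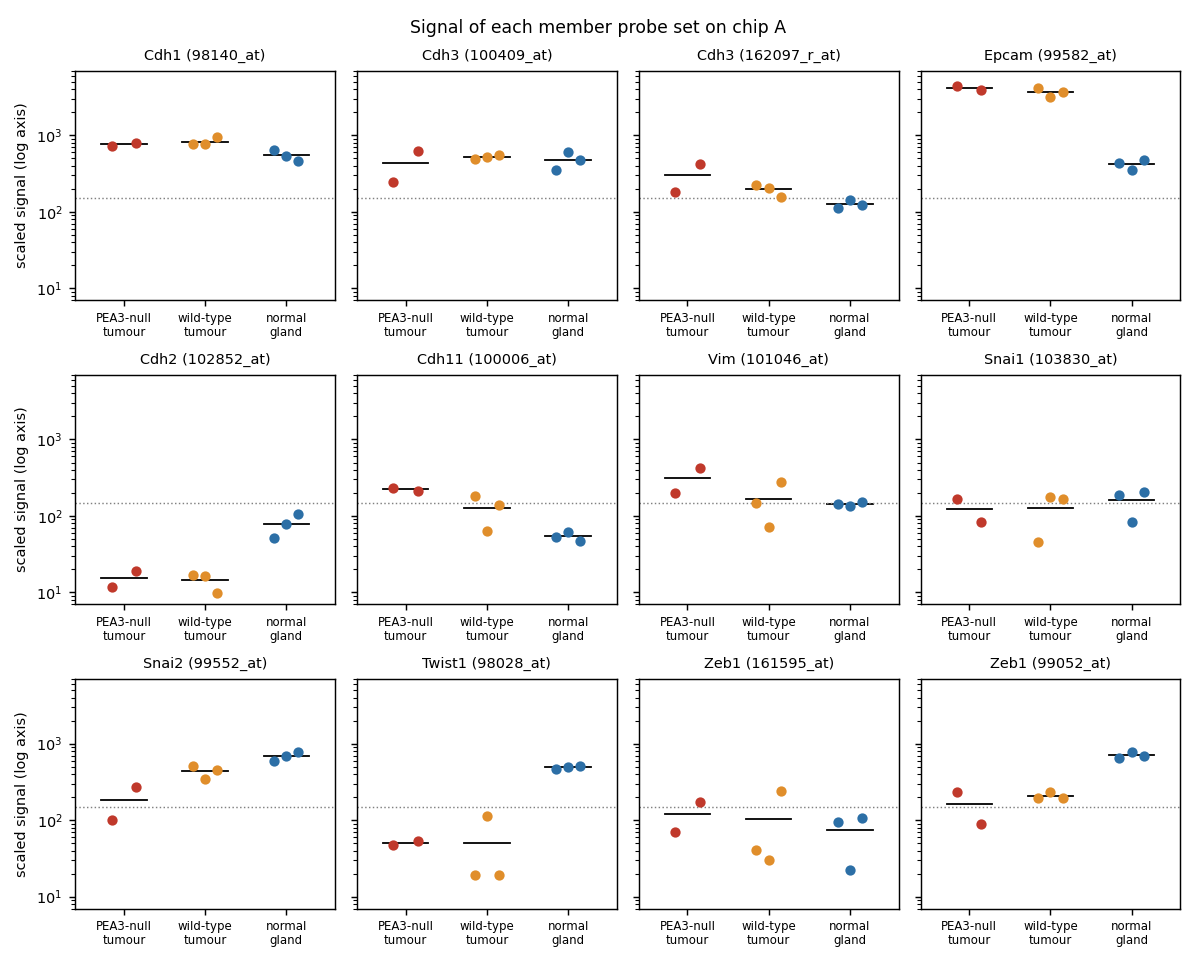
Scaled signal (vertical axis, log scale) of the 12 probe sets of the 10 genes on chip A, with 1 point for each array, a line at the group mean and a dotted line at the minimum of 150. Epcam stands about a decade higher in tumours than in glands, whereas Twist1, Zeb1 (99052_at) and Snai2 are highest in glands and Cdh2 lies under the minimum in all samples.

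Of the 4 transcription factor genes, Zeb1 (by 1 of 2 probe sets) and Snai2 passed as lower in a tumour group than in normal glands, and Twist1 reached the minimum signal in glands alone. Twist1 encodes a basic helix-loop-helix factor of mesenchymal cells. It read 47.6 and 54.0 in PEA3-null tumours, 19.0, 112 and 19.1 in wild-type tumours, and 464, 502 and 510 in normal glands. All tumour samples lay under the minimum of 150 and far below all glands. It entered the test only through the gland arrays, so it had to differ, and its p-values are given as a description: the log2 difference from glands was -2.66 in PEA3-null tumours (SE 0.51, limma adjusted p = 0.00247) and -2.86 in wild-type tumours (SE 0.45, limma adjusted p = 0.000735). Its size depends on the added constant. With 16 added the log2 difference was -2.93 in PEA3-null and -3.23 in wild-type tumours, and with 64 added it was -2.27 in PEA3-null and -2.38 in wild-type tumours. The tumour groups differed by 0.20 (95% interval -0.91 to 1.31).

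Zeb1 encodes a zinc finger repressor of epithelial genes. Probe set 99052_at read 235 and 89.0 in PEA3-null tumours, 194, 234 and 194 in wild-type tumours, and 652, 774 and 698 in normal glands. Every tumour sample was below every gland, and PEA3-null sample 2 was lowest. The fall relative to glands was 2.04 on the log2 scale in PEA3-null tumours (SE 0.35, limma adjusted p = 0.00117) and 1.63 in wild-type tumours (SE 0.31, limma adjusted p = 0.00264). Without PEA3-null sample 1 the difference in PEA3-null tumours was -2.61, and without sample 2 it was -1.47, past the threshold both times. Without the 2 glands whose wash was aborted, neither passed (log2 -2.02, limma adjusted p = 0.0701 in PEA3-null and -1.61, limma adjusted p = 0.141 in wild-type tumours). The second Zeb1 probe set, 161595_at, was near the minimum and differed widely within groups, at 69.8 and 171 in PEA3-null tumours, 40.6, 30.6 and 241 in wild-type tumours, and 94.7, 22.3 and 105 in normal glands. Only PEA3-null array 2 and wild-type array 3 reached the minimum of 150, so it entered the test through tumour arrays alone. It passed in no comparison. Its differences from glands, log2 0.55 in PEA3-null tumours (SE 0.72) and 0.13 in wild-type tumours (SE 0.64), were smaller than their SE. It did not show the fall of 99052_at, and no direction is read from it.

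Snai2 encodes Slug, a zinc finger factor of the Snail family that is found in the basal mammary layer. Its signal was 99.9 and 272 in PEA3-null tumours, 510, 347 and 453 in wild-type tumours, and 585, 695 and 779 in normal glands. The 3 groups did not overlap, with PEA3-null tumours lowest and glands highest. Snai2 fell by 1.83 on the log2 scale in PEA3-null tumours relative to glands (3.57-fold lower, SE 0.35, limma adjusted p = 0.00243), a call that held in all 20 alternatives. It was -2.44 without PEA3-null sample 2 and -1.23 without sample 1. In wild-type tumours the log2 difference from glands was -0.62 (SE 0.31, limma adjusted p = 0.197). The test of PEA3-null against wild-type tumours gave -1.21 (SE 0.35, 95% interval -1.97 to -0.45). Its limma p was 0.00481 unadjusted and 0.244 adjusted. This interval takes its spread partly from the glands. On chip A their median log2 SD was 0.205, against 0.323 in PEA3-null and 0.316 in wild-type tumours, so it may be too narrow. With the tumour arrays alone in the fit the limma adjusted p was 0.613. The difference was -0.61 without PEA3-null sample 1 and -1.81 without sample 2. The adjusted p ranged from 0.0584 to 0.704 over 21 alternatives, so the genotypes were not separated at the threshold. Summed myoepithelial markers were 1312 and 1765 in PEA3-null samples 1 and 2, in which Snai2 read 99.9 and 272. They were 1550, 1569 and 2091 in wild-type samples 1, 2 and 3, in which Snai2 read 510, 347 and 453. So wild-type samples 1 and 2 had lower sums than PEA3-null sample 2 but higher Snai2. The part of such cells in the difference was not tested.

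Snai1 encodes Snail. Its signal was 165 and 82.5 in PEA3-null tumours, 45.2, 176 and 166 in wild-type tumours, and 190, 83.9 and 207 in normal glands. The groups overlapped, and it passed in no comparison (log2 -0.28 for PEA3-null tumours against glands, SE 0.55, -0.32 for wild-type tumours against glands, SE 0.50, and 0.03 for PEA3-null against wild-type tumours, SE 0.55).

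Between PEA3-null and wild-type tumours 9 of the 10 genes were tested, all but Cdh2. The counts lie near the shares over all probe sets, so nothing is read from them about these genes. Of 11 tested probe sets 0 passed with limma, in a comparison in which 0.192% of all tested probe sets did. An unadjusted p under 0.05 was reached by 1 of the 11, that of Snai2, against 10.5% of all. The groups did not overlap for 2, Snai2 and Cdh11 (100006_at), against 22.8% of all. The 95% interval of the log2 difference still ran from -0.91 to 1.31 for Twist1 and from -0.27 to 1.78 for Cdh11.

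Wild-type tumours differed from normal glands at 6 of 14 probe sets, where 20.8% of all tested probe sets did. The 4 that were higher read Epcam (3 probe sets) and Cdh1, against 10.5% of all probe sets higher. The 2 that were lower read Twist1 and Zeb1 (99052_at), against 10.3% of all lower. In PEA3-null tumours 5 of 11 probe sets passed against glands, where 24.6% of all did. Epcam and Cdh11 were higher (12.2% of all were), and Snai2, Twist1 and Zeb1 (99052_at) were lower (12.4% of all were). The counts include Twist1 and, in PEA3-null tumours, Cdh11, which entered the test only through the tissue in which they read higher, so nothing is read from them about the group. Without the 2 glands whose wash was aborted, 2 of these probe sets passed in each comparison with glands. Signals of the groups did not overlap at 8 of the 11 probe sets in PEA3-null tumours against glands, where 53.3% of all did not, and at 10 of the 14 in wild-type tumours against glands, where 41.9% of all did not. Both comparisons share the same normal glands, so they are not independent of each other.

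**Figure D4:**
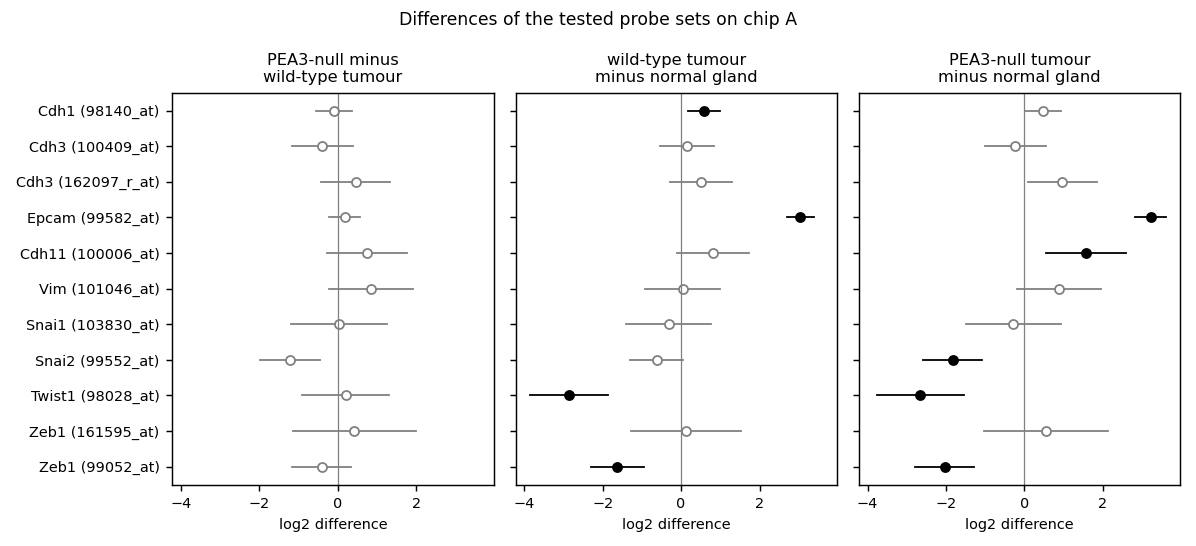
Log2 difference (horizontal axis) with its 95% interval for the 11 tested probe sets on chip A, in PEA3-null minus wild-type tumours, wild-type tumours minus normal glands and PEA3-null tumours minus normal glands. Filled points passed the limma test at an adjusted p of 0.05: 0 in the first panel, 4 in the second and 5 in the third.

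Genes that act beside these were read from lists of the same pathways, each gene by its brightest tested probe set. Between PEA3-null and wild-type tumours 0 genes of the 8 pathway lists passed, where 0.162% of 11760 genes were higher and 0.0765% lower. Medians of these lists lay between -0.29 and 0.26 on the log2 scale. Of the cell type markers above, Tnnc2 of skeletal muscle passed as higher in PEA3-null tumours (log2 2.01, SE 0.33, limma adjusted p = 0.0403). In the comparisons with glands, 13.2% of 11760 genes were higher and 15% lower in PEA3-null tumours, and 12.9% of 13908 genes were higher and 13.8% lower in wild-type tumours. The median over all genes was 0.03 in PEA3-null and 0.00 in wild-type tumours.

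Epithelial surface and keratin genes were mostly higher in tumours. In PEA3-null tumours 13 of 17 measured genes rose and 1 fell (median log2 1.78), and in wild-type tumours 12 rose and 1 fell (median 1.54). The claudin gene Cldn3, a component of tight junctions, rose by 4.56 in PEA3-null and 4.17 in wild-type tumours. Spint1, an inhibitor of the matriptase protease, rose by 3.44 in PEA3-null and 3.17 in wild-type tumours by its brightest probe set. Its other probe set went the other way. That probe set passed at -2.23 in PEA3-null tumours (limma adjusted p = 0.019) and was at -0.56 in wild-type tumours, where it did not pass. The matriptase gene St14 rose by 3.73 in PEA3-null and 3.58 in wild-type tumours, and the claudin gene Cldn7 by 3.53 in PEA3-null and 3.36 in wild-type tumours. On chip C the brightest probe sets of these genes gave smaller rises in wild-type tumours, 1.54 for St14 and 1.55 for Cldn7. Lsr, a tricellular junction gene, rose by 2.83 in PEA3-null and 2.86 in wild-type tumours. Krt19, which encodes a keratin of simple epithelia, was the gene that fell, at -3.42 in PEA3-null and -5.44 in wild-type tumours. This list shares 7 genes with the luminal markers above.

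Genes of mesenchymal matrix and cytoskeleton were mostly lower. Of 19 measured genes 14 fell and 1 rose in PEA3-null tumours (median -1.64), and 13 fell and 2 rose in wild-type tumours (median -1.80). The collagen gene Col1a1 and the smooth muscle actin gene Acta2 were at -3.47 and -3.26 in PEA3-null tumours and at -2.70 and -2.77 in wild-type tumours, and Postn, encoding the matrix protein periostin, at -3.20 there and -3.04 in wild-type tumours. Thy1 and Sparc, genes of fibroblasts and of their matrix, were at -2.88 and -2.84 in PEA3-null tumours and at -3.40 and -2.94 in wild-type tumours. Other probe sets of Acta2 in wild-type and of Sparc in PEA3-null tumours were above 0 and missed the threshold. Itgb3, an integrin gene, rose in both tumour groups (1.84 in PEA3-null and 2.09 in wild-type). The lysyl oxidase gene Lox was at 1.10 in wild-type tumours by its brightest probe set (limma adjusted p = 0.0495), at the threshold, and at -0.32 by the other. In PEA3-null tumours these were at 0.24 and -1.19 and did not pass. Both are named because they went against the list. This list shares Col1a1, Col1a2, Col3a1 and Thy1 with the fibroblast markers, Acta2 with the myoepithelial and Cdh5 with the endothelial ones.

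Other cadherins passed in numbers near the shares over all genes given above, so nothing is read from these counts about cadherins. In PEA3-null tumours 0 of 7 measured genes rose and 1 fell (median 0.36), and in wild-type tumours 1 of 9 rose and 1 fell (median 0.16). Cdh5, the VE-cadherin of endothelium, was the one that fell, at -3.24 in PEA3-null and -4.14 in wild-type tumours, beside the endothelial sums given above. Pcdh18, a protocadherin gene read on chip C, where PEA3-null tumours were not tested, rose by 1.49 in wild-type tumours.

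Catenin and adherens junction genes passed in both directions, with 1 higher and 3 lower of 18 in PEA3-null tumours (median 0.12) and 1 higher and 5 lower of 18 in wild-type tumours (median -0.12). Vcl, encoding the actin linker vinculin, was at -1.89 in PEA3-null and -2.84 in wild-type tumours, and Tjp1, encoding the junction scaffold ZO-1, at -0.88 in PEA3-null and -1.07 in wild-type tumours. Ctnnb1, encoding beta-catenin, fell by 0.87 in wild-type tumours and was at -0.30 in PEA3-null tumours, where it did not pass. Ctnna1, encoding alpha-catenin, passed at -1.16 in wild-type tumours by its brightest probe set, with both other probe sets in the opposite direction. Of these, the one on chip C passed as higher, at 2.09 (limma adjusted p = 0.0458). The one on chip A was at 0.625 and did not pass. In PEA3-null tumours the brightest probe set of Ctnna1 was at -0.72 and did not pass. Nectin4, encoding an adhesion molecule of epithelia, rose by 0.82 in PEA3-null tumours and was at 0.60 in wild-type tumours, where it did not pass. Afdn, encoding the nectin partner afadin, was at -1.29 in PEA3-null and -0.74 in wild-type tumours by its brightest probe set. Its other chip B probe set passed as higher, at 2.5 in PEA3-null (limma adjusted p = 0.000744) and 1.84 in wild-type tumours (limma adjusted p = 0.0031). Its chip C probe set was at 0.91 in wild-type tumours and did not pass. The counts of lower genes include Afdn in both tumour groups and Ctnna1 in wild-type tumours, so no direction is read for these genes.

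Desmosome genes were higher where they passed, with 1 exception. Of 11 measured genes 4 rose and 0 fell in PEA3-null tumours (median 0.93), and 4 rose and 1 fell in wild-type tumours (median 0.13). Perp, a desmosome membrane protein, rose by 2.74 in PEA3-null and 2.40 in wild-type tumours, and Pkp3, encoding plakophilin-3, by 2.42 in PEA3-null and 2.37 in wild-type tumours. Dsg2, encoding the desmosomal cadherin desmoglein-2, rose by 0.93 in PEA3-null and 0.92 in wild-type tumours. Dsc2, encoding desmocollin-2, rose by 1.47 in PEA3-null and 0.85 in wild-type tumours. Pkp1, encoding plakophilin-1, passed at -1.43 in wild-type tumours and was at -0.84 in PEA3-null tumours, where it did not pass.

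Of 12 other transcription factors of the transition measured in PEA3-null tumours, 2 rose and 6 fell (median -0.94), and of 13 in wild-type tumours 2 rose and 3 fell (median -0.45). Prrx1, a homeobox gene of mesenchyme, was at -3.71 in PEA3-null and -3.43 in wild-type tumours. Tcf4, encoding the E2-2 partner of helix-loop-helix factors, was at -3.33 in PEA3-null and -1.39 in wild-type tumours, and 1 of its 2 other probe sets had the opposite sign in PEA3-null tumours. Zeb2, the relative of Zeb1, was at -2.02 in PEA3-null and -1.60 in wild-type tumours by its chip B probe set, while its brightest probe set, on chip C, was at -0.02 in wild-type tumours. Id2, which encodes an inhibitor of helix-loop-helix factors, rose by 2.40 in PEA3-null and 2.87 in wild-type tumours, and its relative Id3 fell by 1.82 in PEA3-null and 1.51 in wild-type tumours.

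Regulators of the epithelial programme moved in both directions. In PEA3-null tumours 6 of 12 measured genes rose and 2 fell (median 1.06), and in wild-type tumours 3 of 14 rose and 2 fell (median 0.65). The ETS gene Ehf rose by 2.06 in PEA3-null and 2.01 in wild-type tumours, and the splicing regulator gene Esrp1 by 1.91 in PEA3-null and 2.06 in wild-type tumours. Foxa1, encoding a luminal forkhead factor, was at -3.12 in PEA3-null and -2.94 in wild-type tumours, and Klf4, encoding a Krüppel-like factor of epithelia, at -3.09 in PEA3-null and -2.62 in wild-type tumours.

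Among the TGF-beta and related inducers, 1 of 14 measured genes rose and 3 fell in PEA3-null tumours (median -0.40), and 1 of 15 rose and 5 fell in wild-type tumours (median -0.26). The receptor genes Tgfbr3 and Tgfbr2 were at -2.97 and -1.87 in PEA3-null and at -3.19 and -1.42 in wild-type tumours, with the other probe set of Tgfbr2 in the opposite direction. Met, the receptor gene for hepatocyte growth factor, was at -1.40 in PEA3-null and -1.11 in wild-type tumours. The ligand gene Tgfb3 rose by 1.36 in PEA3-null and 0.84 in wild-type tumours. Smad3, a signal transducer gene, passed at -1.06 in wild-type tumours and was at 0.01 in PEA3-null tumours, where it did not pass.

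Profiles most like those of the called genes were sought on chip A, by the root mean square difference of log2 values centred on each gene's mean, over the 8 RNA samples. For Epcam the closest were Cmas (0.18), Plet1 (0.20) and Kif20a (0.24), against a median of 1.55 over all genes compared. Nearest to Snai2 were Gata2 (0.16), Grk5 (0.17) and Adam3 (0.19), against a median of 0.95. Twist1 was closest to Mbp (0.27), Zap70 (0.27) and Ndn (0.30), against 1.51, and Zeb1 to Adcy4 (0.16), Cd1d1 (0.17) and Suclg1 (0.17), against 1.06. The closest gene to Cdh1 was Rer1 (0.08) and to Cdh11 Rnaseh2b (0.15), against medians of 0.57 and 0.80. For the 9 genes with a tested probe set, none of the 3 closest genes was itself among the 10. Only 3 were taken for each from all named genes tested on the chip, so this cannot show whether the 10 move together.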

How the data were processed

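Biotin-labelled RNA was read on the 3 chip types of the MG-U74v2 set. The authors deposited 1 linear intensity for each probe set and array, computed with MAS5 per the submitters' processing notes, without a version or settings. The 2% trimmed mean of the deposited intensities was 1500.28 to 1501.06 on all arrays, which shows a scaling before deposit. Scan day and wash record came from the instrument files.

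Signals of an array were divided to give a 2% trimmed mean of 500 over the probe sets of its chip that are no controls. Over the 3 chip types these were 36701, beside 198 controls. Then 32 was added and log2 taken, so folds understate the change of dim probe sets. Probe sets at or above 150 on at least 2 arrays were tested per chip type with limma 3.58.1 in R 4.3.3 (lmFit, eBayes with trend) in a fit of all 3 groups. P-values were two-sided and adjusted by the Benjamini-Hochberg method over 19275 probe sets of chips A and B in comparisons with PEA3-null tumours, since chip C held 1 such array, and over 28242 of chips A, B and C otherwise. Gene symbols came from the platform annotation, and the files give no probe positions. Simulated arrays with known changes were also fitted, with a spread for each probe set that all groups shared. The groups differed in spread on chip A (median log2 SD 0.323 in PEA3-null tumours, 0.316 in wild-type tumours and 0.205 in glands). The simulation does not cover that, and no support is drawn from it. Precision is limited by how few arrays there are.

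The genes, gene lists, tests and the choice of scaling, which follows that used for the whole series, were made with earlier results of these data known. Every probe set of the 10 genes is given, and from each pathway list up to 4 genes with the largest difference among those past the threshold, and any other is said to be named for its values. Groups came from the sample titles and descriptions. Alternatives changed the filter, the constant added, the scaling, which arrays were fitted, the variance trend, array weights, the replicate number as a block, chip types, the aborted washes and each sample left out in turn. A gene named in 1 tumour group is given in the other too, where it was tested.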

Additional observations from a re-analysis of the deposited data

Results flagged for a closer look

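On chip C, which held a single PEA3-null array and therefore entered no test with that group, 2 Epcam probe sets showed a signal above all normal glands in it. The array read 2351 on 134369_i_at, where the glands lay between 1730 and 1875, and 2907 on 134370_f_at, where they lay between 318 and 626. These values come from 1 array and have no replicate check.

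Another 2 probe sets placed the tumour groups on opposite sides of the glands, a difference that was not tested. On the Epcam probe set 170480_at the PEA3-null array read 922 and wild-type tumours averaged 2745, with glands between 2076 and 2179. On the Cdh11 probe set 139147_at the PEA3-null array read 21.9 and wild-type tumours averaged 160, with glands between 31.4 and 101. PEA3-null and wild-type arrays of chip C were scanned on different days, so day and genotype cannot be told apart there.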

How the results depend on the processing

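Of the 11 calls in the 10 genes, 6 held in every alternative in which they were tested: Epcam (99582_at) and Twist1 in both tumour groups, Epcam 134370_f_at in wild-type tumours and Snai2 in PEA3-null tumours. Twist1 entered the test through glands alone, so its calls say nothing of stability. The 25 other results stayed below the threshold in every alternative, apart from Cdh3 162097_r_at in PEA3-null tumours, and no called difference changed sign. Without the 2 normal glands with an aborted wash, 2 of these probe sets passed in wild-type tumours against glands (6 with all arrays) and 2 in PEA3-null tumours (5 with all arrays). That fit assumes that the lone gland varied like the other groups, and Twist1 left the test because 1 gland reached the minimum. Over all probe sets 2092 passed there instead of 5876 for wild-type tumours against glands, and 1709 instead of 4750 for PEA3-null tumours. Leaving out each RNA sample in turn gave 0 to 0 passing probe sets of the 10 genes between PEA3-null and wild-type tumours, 4 to 6 for wild-type tumours against glands and 4 to 5 for PEA3-null tumours. A lone PEA3-null sample is there taken to vary as the other groups do. Same-numbered samples did not deviate together (correlations on chip A of -0.11 to 0.07). With so few samples per group these correlations cannot show whether replicate numbers pair the samples, which the main fit took as unpaired. With the replicate number as a block, 0, 4 and 4 passed in these comparisons. Between PEA3-null and wild-type tumours the count over all probe sets, 37, was 15 with no filter, 6 with the tumour arrays alone in the fit, 4 with no variance trend, 3 with array weights, 3 with the block, 5 without the 2 glands, 63 with chip C added and 3 to 241 with each sample left out, the last without PEA3-null sample 1. The Epcam call of 134369_i_at was lost with no variance trend (adjusted p = 0.143), the block (0.095), without the 2 glands (0.222) and without wild-type sample 1 (0.0696) or gland 1, 2 or 3 (0.0583, 0.0682 and 0.0664). The causes were not tested. Signals under 150, as in Cdh2 and in Twist1 of the tumours, have poorly known size.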
